A study of Ovis aries with 20 samples.

Results

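The comparison set here is day 120 against day 100 of ovine tracheal development, taken over normal (WT) and cystic fibrosis (CF) animals. By their titles, 8 of the 20 RNA sequencing libraries of the series belong to it, 4 at each age. The groups were CF day 120, WT day 120, CF day 100 and WT day 100, with 2 libraries in each. CF is the disease caused by loss of CFTR, the chloride and bicarbonate channel of epithelia, with the CFTR allele and the breed not given in the sources used here. All 8 came from frozen trachea that is labelled as epithelial tissue, and they differ by genotype and age alone as far as the labels say. The series runs over 5 ages, days 65, 80, 100, 120 and 147, the last being birth. Both WT day 100 libraries carry 1 shared sample identifier and may come from 1 animal, so p-values measure the spread between libraries, which may be technical.

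In this window the fetal trachea turns from a growing tube into a working airway. Its lining, built up from basal cells, adds ciliated and secretory cells. Buds that leave the surface form the submucosal glands, whose serous and mucous cells secrete antimicrobial proteins, enzymes and mucus. Around them chondrocytes lay down the cartilage rings, fibroblasts and smooth muscle build collagen and elastic fibres, and fat appears in the outer coat. These are textbook facts and not results of these libraries.

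Total counts were lowest in WT day 120 replicate 1, at 51889216, and highest in WT day 100 replicate 2, at 87651829. Levels below are CPM, counts relative to the TMM-scaled library total of the 8 libraries, and 19023 genes had enough counts to be tested. The libraries held more than epithelium. EPCAM, a surface protein of epithelial cells, stood at 173 and 179 CPM in CF and 175 and 228 CPM in WT at day 120, against 172 and 172 CPM in CF and 293 and 317 CPM in WT at day 100. COL1A1, the main collagen chain of fibroblasts and bone, took 11027 and 12018 CPM in CF and 12125 and 7399.9 CPM in WT at day 120, against 12286 and 11267 CPM in CF and 700.4 and 624 CPM in WT at day 100. The WT day 100 pair thus stood apart from the other 6 libraries before any test. A gene list's score averages, over its members, log2 CPM from which each gene's own 8-library average was taken. It lay at -1.31 and -1.64 in that pair for 52 fibroblast and matrix genes, against 0.24 to 0.71 in the others. The libraries also differed in how log2 CPM depended on gene length. The slope ran from -0.15 to 0.12 within WT day 120 and from -0.12 to 0.15 within CF day 120, against -0.12 and -0.07 in WT day 100 and 0.10 in both CF day 100 libraries. Its part in the results was tested only as a covariate.

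Over all genes, few differences exceeded the spread between the libraries. With genotype as a covariate, edgeR's quasi-likelihood test with Benjamini-Hochberg adjustment called none of the 19023 genes, and 1455 (7.65%) had an unadjusted p under 0.05, 969 of them higher and 486 lower at day 120. DESeq2 called 349 genes higher (1.83%) and 127 lower (0.668%), limma-voom called 1 (0.00526%), and edgeR with all 20 libraries in the fit called 19 higher (0.0945%) and 1 lower (0.00498%). Without WT day 120 replicate 1 edgeR called 8 genes, and without WT day 100 replicate 2 it called 1. As a description that needs no model, 414 genes (2.18%) had all 4 day 120 libraries above all 4 day 100 libraries, and 432 (2.27%) had them all below. This rule of non-overlap was chosen after it was seen that few genes passed. In the DESeq2 set of 476 genes, 310 were without overlap. With library size alone in place of TMM, 355 were higher and 646 lower, so the balance between directions depends on the scaling. That scaling moved the median log2 fold change over all genes to -0.14 in CF and 0.12 in WT, against 0.02 in CF and 0.03 in WT with TMM.

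The plot of 10 genes by library shows shared differences of single genes, picked after their values were seen. VNN2, NCF1 and PADI1 had the smallest adjusted p among named genes that were higher at day 120. VNN2, a vanin, one of a family of membrane-anchored pantetheinases, stood at 62.4 and 85.5 CPM in CF and 21.7 and 23.05 CPM in WT at day 120, against 3.67 and 3.07 CPM in CF and 0.988 and 2.59 CPM in WT at day 100. It lies on chromosome 8 from 57875761 to 57900347 by the count tables, with their genome build not given in the sources used here. The lowest day 120 library was thus far above the highest day 100 library in each genotype, and the log2 fold change was 4.05 ± 0.36 (SE). Its adjusted p of 0.0573 was the smallest of all genes in edgeR's quasi-likelihood test, just short of 0.05. NCF1, the p47phox subunit of the phagocyte NADPH oxidase, which makes superoxide, had 37.5 and 37.4 CPM in CF and 35.9 and 55.7 CPM in WT at day 120, against 11.3 and 9.45 CPM in CF and 11.7 and 15.1 CPM in WT at day 100. PADI1, an enzyme that turns arginine residues of proteins into citrulline, had 38.8 and 29.4 CPM in CF and 61.5 and 46.2 CPM in WT at day 120, against 11.6 and 11.99 CPM in CF and 15.7 and 15.1 CPM in WT at day 100. Their log2 fold changes were 1.82 ± 0.19 (SE) and 1.67 ± 0.17 (SE), each with an adjusted p of 0.0688 in edgeR's test. In neither gene did the ages overlap in any library.

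PI3, also called elafin, an inhibitor of neutrophil elastase secreted onto airway surfaces, lies on chromosome 13 from 72941426 to 72942784 in the same coordinates. It had 3753 and 2779 CPM in CF and 2002 and 4146 CPM in WT at day 120, against 652 and 492 CPM in CF and 657 and 571 CPM in WT at day 100, a log2 fold change of 2.42 ± 0.32 (SE) with an adjusted p of 0.13 in edgeR's test. CKMT1A, a mitochondrial creatine kinase, had a log2 fold change of 1.66 ± 0.23 (SE), and NOXO1, the organiser of the epithelial NADPH oxidase NOX1, of 1.502 ± 0.26 (SE). Neither gene overlapped between the ages. CKMT1A averaged 26.96 ± 6.93 CPM at day 120 and 8.54 ± 1.24 CPM at day 100 (SD, n = 4 each). NOXO1 averaged 50.4 ± 13.5 CPM at day 120 and 18.4 ± 6.61 CPM at day 100 (SD, n = 4 each).

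Other single genes were lower at day 120. TNC, tenascin C, a matrix glycoprotein of growing and healing tissue encoded on chromosome 2 from 8633035 to 8735387, had 80.2 and 72.99 CPM in CF and 55.8 and 51.6 CPM in WT at day 120, against 170.4 and 169 CPM in CF and 113 and 132 CPM in WT at day 100. Its log2 fold change was -1.17 ± 0.13 (SE), with an adjusted p of 0.0691 in edgeR's test, and the step was -1.19 in WT and -1.15 in CF. NRIP3, a nuclear receptor interacting protein, had 8.04 and 7.74 CPM in CF and 11.9 and 13.5 CPM in WT at day 120, against 22.7 and 19.3 CPM in CF and 64.97 and 51.98 CPM in WT at day 100, a log2 fold change of -1.81 ± 0.21 (SE) and an adjusted p of 0.0834 in edgeR's test. The WT libraries of either age lay above the CF libraries of that age, and within each genotype the ages were wide apart. KRT6A, a keratin of activated and wounded epithelium, had 9.64 and 9.76 CPM in CF and 9.41 and 9.04 CPM in WT at day 120, against 40.2 and 29.9 CPM in CF and 31.7 and 16.5 CPM in WT at day 100. Its 4 day 120 values lay within 1 CPM of each other, while the day 100 values were spread more widely. SULT1E1, the oestrogen sulfotransferase, averaged 42.4 ± 14.5 CPM at day 120 and 141 ± 32.2 CPM at day 100 (SD, n = 4 each). CDH6, a cadherin of cell-cell adhesion, averaged 4.59 ± 0.833 CPM at day 120 and 10.8 ± 2.6 CPM at day 100 (SD, n = 4 each). SYT13, a synaptotagmin, averaged 8.05 ± 4.64 CPM at day 120 and 28.8 ± 8.42 CPM at day 100 (SD, n = 4 each). KREMEN2, a receptor for the Wnt inhibitor Dickkopf, averaged 0.732 ± 0.344 CPM at day 120 and 3.31 ± 0.965 CPM at day 100 (SD, n = 4 each). None of these 4 genes overlapped between the ages. Keratin genes have close copies, so reads of KRT6A may be split between copies, and this holds for OAS1 and CLCA1 below as well.

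**Figure D1:**
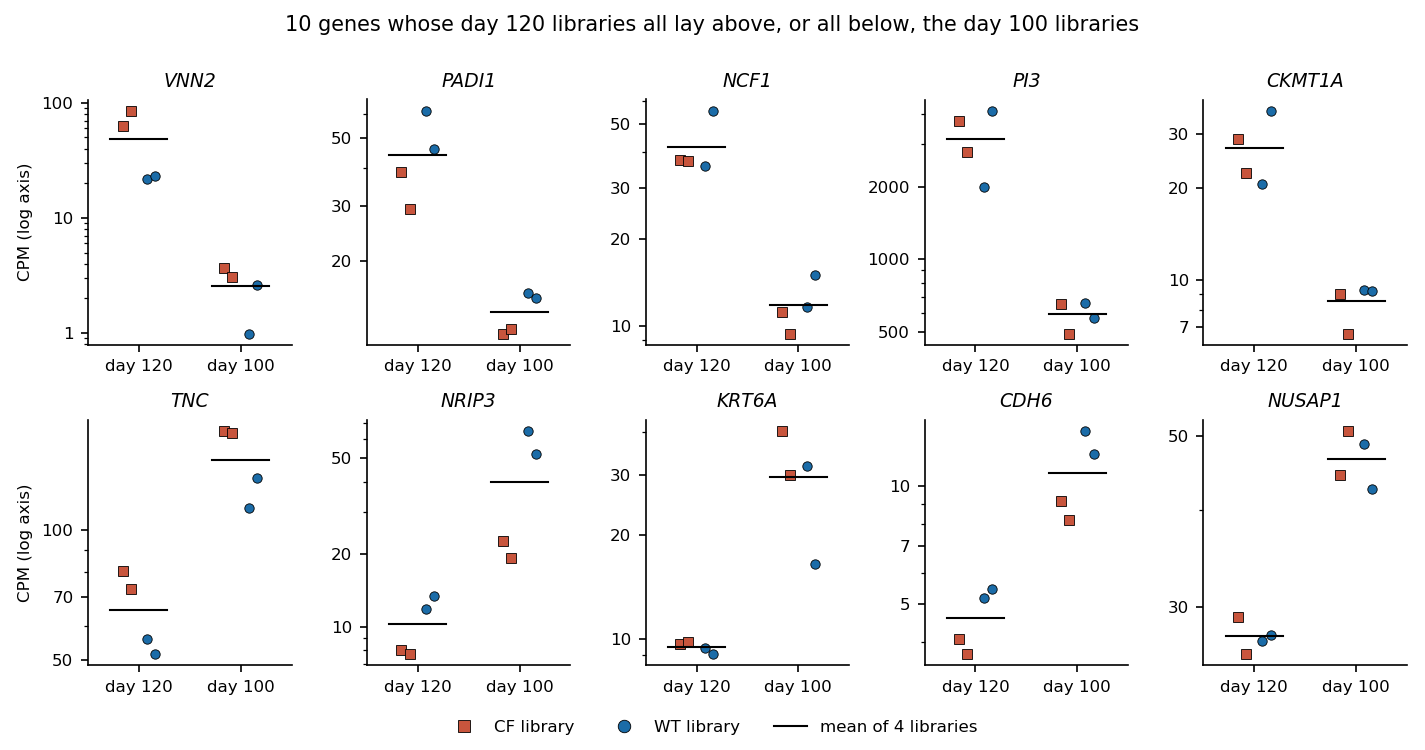
Level of 10 genes in each library, in CPM on log axes that differ between panels. Squares are CF and circles WT libraries, set side by side within an age, and the line is the mean of the 4 libraries. In each panel all 4 day 120 libraries lie on 1 side of the 4 day 100 libraries, with VNN2 at 21.7 to 85.5 CPM at day 120 and 0.988 to 3.67 CPM at day 100.

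The largest folds of the comparison were in genes of fat cells. Of 34 adipocyte genes listed, 33 were tested, and 16 had all 4 day 120 libraries above all 4 day 100 libraries, against 2.18% of all genes. None was lower. With library size alone in place of TMM, 13 were higher without overlap and none lower, against 355 of the 19023 genes higher. The median log2 fold change of the list was 4.38, with 6.19 in WT and 3.13 in CF, beside 0.04 over all genes. These medians stayed the same when the members with no count in a day 100 group were set to a bound from 3 counts. None of the 33 passed edgeR's test, while 30 were higher with an unadjusted p under 0.05, against 5.09% of all genes. DESeq2 called 26 higher, against 1.83% of all genes.

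ADIPOQ, the hormone adiponectin of fat cells, had 915 and 262 CPM in CF and 1252 and 47.6 CPM in WT at day 120, against 5.21 and 29.1 CPM in CF and 0.912 and 1.51 CPM in WT at day 100. FABP4, the fatty acid binding protein of adipocytes, had 259 and 97.1 CPM in CF and 250.0 and 52.1 CPM in WT at day 120, against 3.37 and 8.92 CPM in CF and 0.874 and 1.37 CPM in WT at day 100. Their log2 fold changes were 7.03 ± 1.54 (SE) and 5.93 ± 0.83 (SE), with adjusted p of 0.341 and 0.171 in edgeR's test. Levels within an age differed widely: in ADIPOQ the WT day 120 libraries were far apart, and CF day 100 replicate 2 came within reach of the lower of them. Genes that coat or fill the lipid droplet were also higher in all 4 day 120 libraries. PLIN1, the perilipin of the droplet surface, had 115 and 27.96 CPM in CF and 226 and 4.94 CPM in WT at day 120, against 2.84 and 4.89 CPM in CF and 0.874 and 0.938 CPM in WT at day 100. Its lowest day 120 value and its highest day 100 value were thus nearly equal, so their order may depend on the scaling. CIDEC, which fuses droplets, averaged 38.6 ± 31.2 CPM at day 120 and 1.16 ± 1.07 CPM at day 100 (SD, n = 4 each). DGAT2, the enzyme of the last step of triglyceride synthesis, averaged 250.0 ± 225 CPM at day 120 and 4.63 ± 2.97 CPM at day 100 (SD, n = 4 each). THRSP, a regulator of fatty acid synthesis, averaged 47.8 ± 37.8 CPM at day 120 and 5.39 ± 0.543 CPM at day 100 (SD, n = 4 each).

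PPARG, the master regulator of fat cell differentiation, overlapped between the ages. It had 57.1 and 13.4 CPM in CF and 52.9 and 5.71 CPM in WT at day 120, against 3.38 and 8.45 CPM in CF and 0.38 and 0.285 CPM in WT at day 100, so that WT day 120 replicate 2 lay below CF day 100 replicate 2. FASN, fatty acid synthase, had 573 and 381 CPM in CF and 2192 and 84.9 CPM in WT at day 120, against 171 and 154 CPM in CF and 59.1 and 85.2 CPM in WT at day 100 and overlapped as well. UCP1, the uncoupling protein of brown fat, had 3.60 and 0.938 CPM in CF and 7.09 and 0.0721 CPM in WT at day 120, against no count in any day 100 library. A group count of 0 allows up to 0.011 CPM at day 100, counting error only. LEP, the hormone leptin, had 3.83 and 1.13 CPM in CF and 8.09 and 0.432 CPM in WT at day 120, against no count in 3 of the 4 day 100 libraries and 0.118 CPM in CF day 100 replicate 2.

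The amount of fat RNA differed between libraries of 1 group. The adipocyte genes summed to 4381 and 1877 CPM in CF and 8559 and 604 CPM in WT at day 120, against 493 and 549 CPM in CF and 339 and 375 CPM in WT at day 100. WT day 120 replicate 2 was the lowest day 120 library for 26 of the 33 genes, and CF day 100 replicate 2 the highest day 100 library for 22. Without the first of these, 30 members were without overlap, against 4.23% of all genes then. Without any other library 16 to 22 were, against 2.8% to 4.23% of all genes. In these libraries, which held more than epithelium, fewer cells of a type and less RNA per cell cannot be told apart. How much of the outer coat of the trachea was taken with each sample was not tested.

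**Figure D2:**
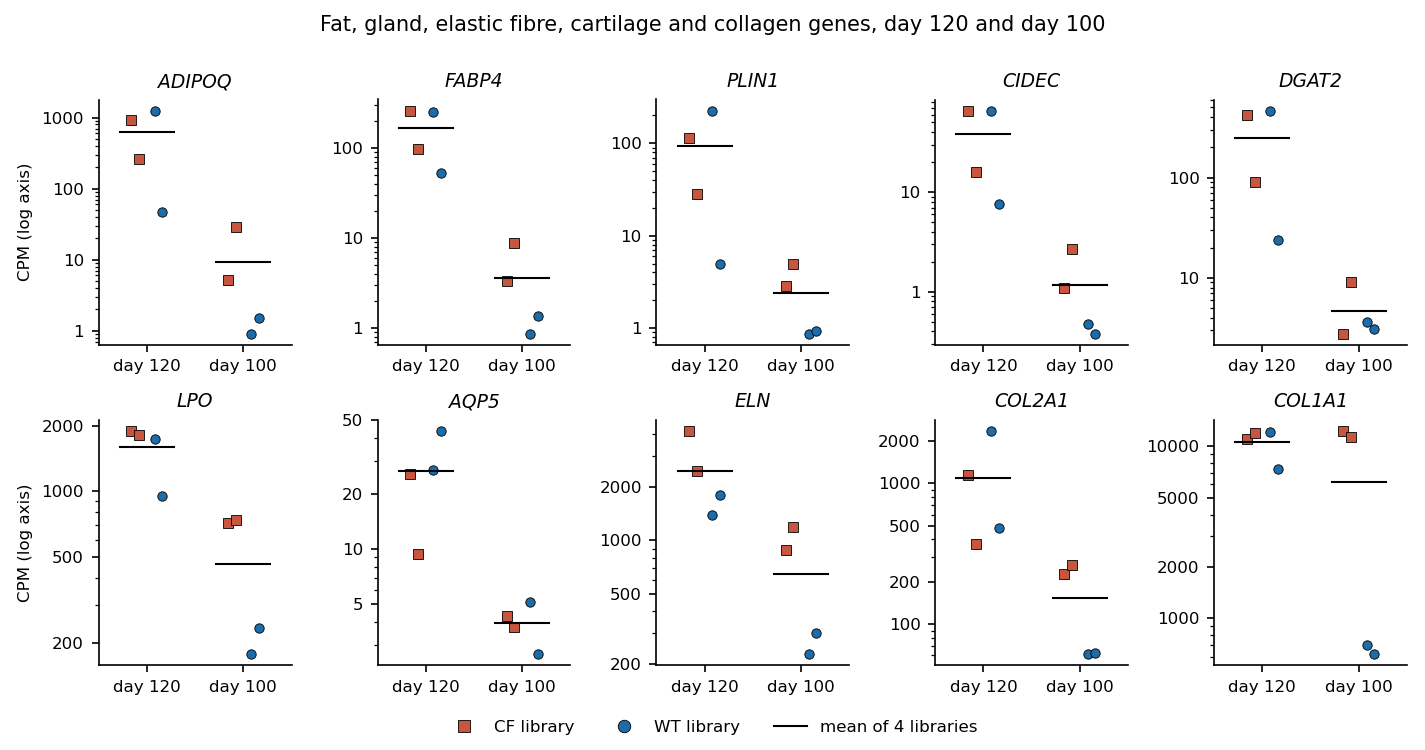
Level of 5 fat genes in the upper panels and of LPO, AQP5, ELN, COL2A1 and COL1A1 in the lower panels, in CPM on log axes that differ between panels. Squares are CF and circles WT libraries, set side by side within an age, and the line is the mean of the 4 libraries. COL1A1 is at 624 and 700 CPM in WT day 100, against 7399.9 CPM or more in the other 6 libraries, while the other 9 genes do not overlap between the ages.

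Genes of cell division were lower at day 120 in a narrow band of small folds. Of 90 cell cycle genes tested, 88 had a negative log2 fold change, and 38 had all 4 day 120 libraries below all 4 day 100 libraries, against 2.27% of all genes. None was higher without overlap. The median log2 fold change was -0.51, with -0.49 in WT and -0.55 in CF, beside 0.04 over all genes. None passed edgeR's test, and 44 were lower with an unadjusted p under 0.05, against 2.55% of all genes. DESeq2 called 19 lower, against 0.668% of all genes. The count without overlap was 38 to 49 when any 1 library was left out, against 2.96% to 4.45% of all genes then.

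The members span the whole division cycle. MCM6, a subunit of the helicase that opens DNA for replication, had 49.7 and 45.7 CPM in CF and 50.1 and 54.1 CPM in WT at day 120, against 68.6 and 69.3 CPM in CF and 81.9 and 79.3 CPM in WT at day 100. NUSAP1, which bundles spindle microtubules, had 29.1 and 26.1 CPM in CF and 27.1 and 27.6 CPM in WT at day 120, against 44.4 and 50.7 CPM in CF and 48.8 and 42.7 CPM in WT at day 100. TOP2A, the topoisomerase that untangles sister chromosomes, had 57.9 and 69.01 CPM in CF and 63.9 and 52.6 CPM in WT at day 120, against 112 and 119.7 CPM in CF and 84.9 and 79.01 CPM in WT at day 100. Their log2 fold changes were -0.58 ± 0.12 (SE), -0.77 ± 0.14 (SE) and -0.68 ± 0.15 (SE), and adjusted p was 0.312, 0.206 and 0.341 in edgeR's test. In all 3 the highest day 120 library lay below the lowest day 100 library. The cyclins of S phase and mitosis, CCNA2 and CCNB1, had log2 fold changes of -0.60 ± 0.16 (SE) and -0.66 ± 0.18 (SE). CDK1, the kinase they activate, was at -0.73 ± 0.29 (SE) and RRM2, which makes deoxynucleotides, at -0.64 ± 0.17 (SE). PLK4, the kinase that starts centriole duplication and is on the list of ciliated cell regulators, was at -0.76 ± 0.16 (SE), also without overlap.

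MKI67, the usual stain for dividing cells, did not share this. It had 16.6 and 40.9 CPM in CF and 46.3 and 11.3 CPM in WT at day 120, against 55.8 and 56.6 CPM in CF and 16.9 and 21.7 CPM in WT at day 100. The step was -0.97 in CF and 0.58 in WT on the log2 scale, and neither passed. The 4 libraries with a positive length slope had 40.9 to 56.6 CPM of it and the 4 with a negative slope 11.3 to 21.7 CPM. With the length slope as a covariate 3 cell cycle genes passed in edgeR's test, all lower, against 0.0999% of all genes.

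Some secretory products of glands and surface were higher at day 120. Of 22 gland and antimicrobial genes tested, 6 were higher without overlap, against 2.18% of all genes, and none lower. The median log2 fold change was 0.41. EdgeR called none, and 8 were higher with an unadjusted p under 0.05, against 5.09% of all genes. DESeq2 called 7 higher, against 1.83% of all genes. Beside PI3 the genes higher without overlap were LPO, AQP5, AZGP1, S100A8 and BPIFB2. LPO, lactoperoxidase, which with hydrogen peroxide and thiocyanate kills bacteria in airway fluid, had 1893 and 1805 CPM in CF and 1731 and 949 CPM in WT at day 120, against 711 and 734 CPM in CF and 179 and 236 CPM in WT at day 100. AQP5, the water channel of serous gland cells, had 25.5 and 9.399 CPM in CF and 27.02 and 43.9 CPM in WT at day 120, against 4.34 and 3.75 CPM in CF and 5.13 and 2.696 CPM in WT at day 100. Both were without overlap, with log2 fold changes of 2.02 ± 0.36 (SE) and 2.65 ± 0.43 (SE) and adjusted p of 0.221 and 0.206 in edgeR's test. AZGP1, a secreted zinc-binding glycoprotein, averaged 64.8 ± 15.1 CPM at day 120 and 33.1 ± 5.53 CPM at day 100 (SD, n = 4 each). S100A8, a subunit of the metal-binding antimicrobial calprotectin, averaged 4.72 ± 1.798 CPM at day 120 and 1.25 ± 0.366 CPM at day 100 (SD, n = 4 each). LTF, lactoferrin, an iron-binding gland protein, had steps of opposite sign in the genotypes and is described below. BPIFA1, a surfactant-like airway protein, was low throughout, at 0.575 to 5.15 CPM at day 120 and 0.676 to 3.32 CPM at day 100.

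Of 31 goblet cell and mucus genes, 5 were higher without overlap, against 2.18% of all genes, and none lower, with a median of 0.41. CLCA1, a secreted protease of mucus, had 161 and 127 CPM in CF and 545 and 109 CPM in WT at day 120, against 7.99 and 9.58 CPM in CF and 32.5 and 95.2 CPM in WT at day 100. Its groups were nearly adjacent in WT and wide apart in CF, and the log2 fold change was 3.19 ± 0.64 (SE). ITLN, intelectin, a mucus lectin that binds microbial sugars, had 1257 and 513 CPM in CF and 819 and 907 CPM in WT at day 120, against 58.9 and 77.6 CPM in CF and 379.7 and 328 CPM in WT at day 100. In ITLN the step was 1.28 in WT and 3.70 in CF, and the difference of 2.41 ± 0.62 (SE) missed the threshold, with an adjusted p of 0.493 in edgeR's test. The gel-forming mucins had few counts. MUC5B had 0.759 and 7.46 CPM in CF and 5.79 and 0.486 CPM in WT at day 120, against 1.59 and 0.882 CPM in CF and 0.152 and 0.297 CPM in WT at day 100. MUC5AC had 0.455 and 2.92 CPM in CF and 2.98 and 0.144 CPM in WT at day 120, against 1.06 and 0.485 CPM in CF and 0.418 and 0.0238 CPM in WT at day 100. Both overlapped between the ages.

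The 21 genes of secretory club cells had no member without overlap. SCGB3A2, a secretoglobin of airway secretions, had 19613 and 9353 CPM in CF and 14612 and 20489 CPM in WT at day 120, against 3281 and 4991 CPM in CF and 16034 and 20500.0 CPM in WT at day 100. The CF day 100 pair was the low one. SCGB1A1, the classical club cell marker, was near 0, at up to 1.48 CPM at day 120 and up to 0.475 CPM at day 100.

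CFTR itself had 14.8 and 29.9 CPM in CF and 34.4 and 16.5 CPM in WT at day 120, against 19.6 and 17.3 CPM in CF and 26.1 and 32.3 CPM in WT at day 100. The ages overlapped fully, and the log2 fold change was 0.04 ± 0.31 (SE). A count over the whole gene shows no small change of its sequence, so it does not check the genotype labels. The subunits of ENaC, the epithelial sodium channel that absorbs airway fluid, had log2 fold changes of 0.64 ± 0.57 (SE) for SCNN1A, 0.19 ± 0.34 (SE) for SCNN1B and 0.60 ± 0.27 (SE) for SCNN1G. Each overlapped between the ages. Over 34 genes of ion and fluid transport, 2 were higher without overlap, AQP5 and the potassium channel KCNN4, against 2.18% of all genes, and none lower. Without WT day 120 replicate 2 the count was 6, against 4.23% of all genes then. FOXI1, the regulator of ionocytes, the rare cells rich in CFTR, was near 0 at 0.417 and 0.375 CPM in CF and 2.14 and 1.51 CPM in WT at day 120, against 0.479 and 0.0294 CPM in CF and 0.266 and 0.380 CPM in WT at day 100. No ionocyte gene of the 17 tested was without overlap.

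Of the lists of ciliated and basal cells, the basal one held 1 gene higher and 2 lower of 17 without overlap. Over all genes the shares were 2.18% higher and 2.27% lower. DESeq2 called 2 basal genes lower, against 0.668% of all genes. With library size alone no basal gene was without overlap. Of 19 regulators of multiciliated cells 2 were lower, one of them PLK4, and 1 was with library size alone. Of 89 genes of the motile axoneme none was without overlap, none had an unadjusted p under 0.05, and the median log2 fold change was -0.10. FOXJ1, the regulator of motile cilia, had 431 and 349 CPM in CF and 345 and 786 CPM in WT at day 120, against 512 and 381 CPM in CF and 756 and 665 CPM in WT at day 100. TP63, which keeps basal cells, was at -0.03 ± 0.25 (SE), and KRT5, their keratin, at -0.41 ± 0.29 (SE), both with overlap. ITGB4, an integrin subunit that anchors basal cells, averaged 149 ± 20.8 CPM at day 120 and 107 ± 18.2 CPM at day 100 (SD, n = 4 each). It did not overlap between the ages, and its log2 fold change was 0.49 ± 0.18 (SE). MME, neprilysin, an enzyme that cleaves small peptides, averaged 196 ± 35.9 CPM at day 120 and 443 ± 196 CPM at day 100 (SD, n = 4 each).

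Some elastic fibre and cartilage genes were higher at day 120. Of 18 elastic fibre genes 2 were higher and 1 lower without overlap, against 2.18% and 2.27% of all genes, and the median was -0.10 in CF and 1.00 in WT. In 14 of the 18 the WT day 100 pair lay below the other 6 libraries, against 13% of all genes. ELN, which encodes the elastin of airway elastic fibres on chromosome 24 from 33178422 to 33210883, had 4149.7 and 2479.7 CPM in CF and 1386 and 1797 CPM in WT at day 120, against 883 and 1184 CPM in CF and 229.5 and 299 CPM in WT at day 100. No library overlapped, the log2 fold change was 2.14 ± 0.33 (SE) with an adjusted p of 0.206 in edgeR's test, and the step was 2.59 in WT and 1.68 in CF. EFEMP1, a fibulin of the same fibres, was lower, at 105 ± 18.6 CPM at day 120 and 234 ± 91.5 CPM at day 100 (SD, n = 4 each). Of 39 cartilage genes 3 were higher without overlap, against 2.18% of all genes, and the count was 8 without CF day 120 replicate 2 and 5 without WT day 120 replicate 2, against 4.23% of all genes in either case. The median was 0.70, with 0.15 in CF and 1.38 in WT, and that of CF was -0.01 with library size alone. The WT day 100 pair lay below the other 6 libraries for 17 of the 39. COL2A1, the main collagen of cartilage, had 1154 and 371 CPM in CF and 2360.0 and 479 CPM in WT at day 120, against 226 and 263 CPM in CF and 61.6 and 62.9 CPM in WT at day 100. S100B, made by chondrocytes and Schwann cells, averaged 14.1 ± 8.31 CPM at day 120 and 2.597 ± 1.06 CPM at day 100 (SD, n = 4 each). CHAD, a matrix protein that binds chondrocytes, averaged 11.1 ± 6.22 CPM at day 120 and 3.42 ± 2.26 CPM at day 100 (SD, n = 4 each). ACAN, the cartilage proteoglycan, overlapped, at 56.2 and 34.2 CPM in CF and 124 and 32.2 CPM in WT at day 120, against 52.2 and 50.99 CPM in CF and 15.4 and 16.2 CPM in WT at day 100. The day 120 libraries of each genotype were far apart in COL2A1, and how much cartilage each sample held was not tested.

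Smooth muscle genes turned on 1 library. MYH11, the myosin of smooth muscle, had 117 and 222 CPM in CF and 232 and 373 CPM in WT at day 120, against 132 and 139 CPM in CF and 228 and 9.22 CPM in WT at day 100. WT day 100 replicate 2 was the low one, and the list score there was -2.04, against 0.06 or more elsewhere. Of 37 smooth muscle genes 1 was higher without overlap, against 2.18% of all genes.

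**Figure D3:**
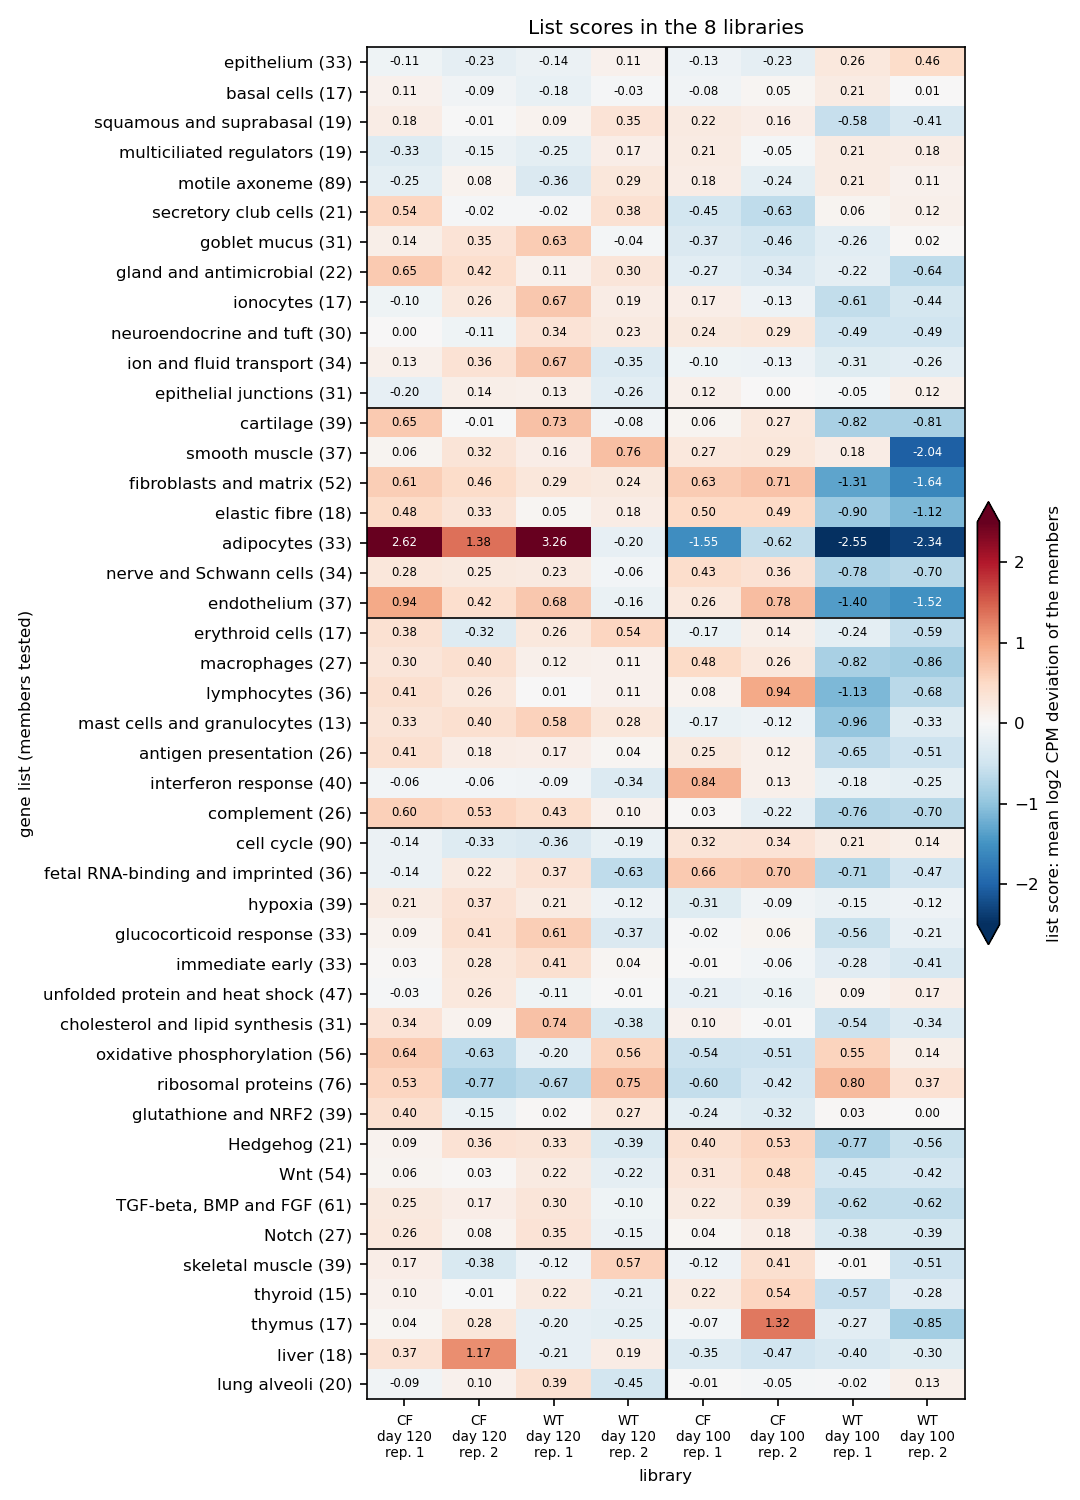
Score of each of 45 gene lists in each library: log2 CPM averaged over members after each gene's 8-library average was taken off. Columns are libraries, day 120 left of the black line and day 100 right of it, and lines divide lists by role. Adipocytes score -0.20 to 3.26 at day 120 and -2.55 to -0.62 at day 100, cell cycle -0.36 to -0.14 at day 120 and 0.14 to 0.34 at day 100, and WT day 100 is low for fibroblasts, endothelium and macrophages.

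Stromal lists were higher at day 120 in WT, with the WT day 100 pair the low group. Of 52 fibroblast and matrix genes, 47 were higher in both WT day 120 libraries than in both WT day 100 libraries, against 20.3% of all genes, and 4 were so in CF, against 13.4%. The median log2 fold change was 1.64 in WT and -0.10 in CF. In 45 of the 52 the WT day 100 pair lay below all other 6 libraries, against 13% of all genes. No fibroblast gene passed edgeR's test of the difference between the genotypes, and DESeq2 called 22, all with a larger step in WT, against 1.29% of all genes. The WT day 100 pair was also below the rest for 33 of 37 endothelial and 16 of 27 macrophage genes. PECAM1, an adhesion protein of endothelium, averaged 124 CPM in CF and 80.98 CPM in WT at day 120, against 106 CPM in CF and 22.6 CPM in WT at day 100 (n = 2 each). CSF1R, the growth factor receptor of macrophages, averaged 34.4 CPM in CF and 32.4 CPM in WT at day 120, against 32.7 CPM in CF and 9.097 CPM in WT at day 100 (n = 2 each). For each gene the low group was WT day 100. EPCAM was highest in that pair, and whether less stroma was sampled there was not tested.

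Of 26 complement genes 4 were higher without overlap, against 2.18% of all genes, and none lower, with a median of 0.75. The count was 8 without WT day 120 replicate 1 and 9 without WT day 120 replicate 2, against 3.27% and 4.23% of all genes then. For 14 of the 26 the WT day 100 pair lay below the other 6 libraries, against 13% of all genes. C7, a component of the membrane attack complex, had 17.03 and 13.01 CPM in CF and 25.5 and 7.82 CPM in WT at day 120, against 6.24 and 5.099 CPM in CF and 2.38 and 3.04 CPM in WT at day 100. CFB, factor B of the alternative pathway, averaged 96.7 ± 23.2 CPM at day 120 and 51.2 ± 9.31 CPM at day 100 (SD, n = 4 each). C3, the central component, had 1131 and 1074 CPM in CF and 517 and 1370.2 CPM in WT at day 120, against 964 and 646 CPM in CF and 178 and 124 CPM in WT at day 100, with overlap and with WT day 100 the low group. MPO, myeloperoxidase of neutrophil granules, had 10.3 and 22.2 CPM in CF and 20.1 and 6.703 CPM in WT at day 120, against 3.56 and 2.87 CPM in CF and 1.84 and 2.59 CPM in WT at day 100, without overlap and with a log2 fold change of 2.46 ± 0.41 (SE). The macrophage genes had a median of 0.07 in CF and 1.03 in WT, and that of CF was -0.09 with library size alone.

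Some interferon-stimulated genes were lower at day 120. Of 40 tested, 4 were lower without overlap and none higher, against 2.27% of all genes lower, and the median was -0.25. OAS1, a sensor of viral RNA, had 42.1 and 49.1 CPM in CF and 50.5 and 33.7 CPM in WT at day 120, against 186 and 86.9 CPM in CF and 90.2 and 85.7 CPM in WT at day 100. IFI6, an interferon-induced membrane protein, had 53.2 and 42.4 CPM in CF and 35.6 and 48.03 CPM in WT at day 120, against 193 and 85.5 CPM in CF and 91.5 and 53.9 CPM in WT at day 100. CF day 100 replicate 1 held the highest day 100 level for 32 of the 40 genes. Without it the counts were 4 lower and none higher, against 3.87% of all genes lower then.

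Growth and metabolic state gave smaller counts. Of 36 fetal RNA-binding and imprinted genes 3 were lower without overlap, against 2.27% of all genes, and none higher. Their median log2 fold change was 0.09, with -0.33 in CF and 0.41 in WT, and 18 were positive and 18 negative. IGF2BP3, a fetal RNA-binding protein, averaged 15.8 ± 2.45 CPM at day 120 and 26.2 ± 1.82 CPM at day 100 (SD, n = 4 each), without overlap. SALL4, a factor of embryonic cells, averaged 0.733 ± 0.269 CPM at day 120 and 2.04 ± 0.521 CPM at day 100 (SD, n = 4 each), also without overlap. LIN28B, which blocks let-7 microRNAs in early tissue, was near 0, at no more than 0.0938 CPM at day 120 and 0.269 CPM at day 100. Of 39 hypoxia genes 4 were higher without overlap, PFKL, GPI, PFKFB4 and ALDOA, against 2.18% of all genes, and none lower. The count was 9 without WT day 120 replicate 1 and 8 without WT day 120 replicate 2, against 3.27% and 4.23% of all genes then. ALDOA, the glycolytic enzyme aldolase, averaged 854 ± 144 CPM at day 120 and 560.4 ± 86.7 CPM at day 100 (SD, n = 4 each). Of 39 glutathione and NRF2 genes 3 were higher without overlap, against 2.18% of all genes, and none lower, and the count was 7 without WT day 120 replicate 2, against 4.23% of all genes then. GPX2, a glutathione peroxidase of epithelia, averaged 52.9 ± 12.9 CPM at day 120 and 21.1 ± 6.25 CPM at day 100 (SD, n = 4 each). GCLC, the rate-limiting enzyme of glutathione synthesis, averaged 24.2 ± 3.099 CPM at day 120 and 16 ± 1.77 CPM at day 100 (SD, n = 4 each). FKBP5, a sensitive target of glucocorticoids, had 18.5 and 32.8 CPM in CF and 22.4 and 17.8 CPM in WT at day 120, against 31.4 and 29.3 CPM in CF and 24.1 and 27.6 CPM in WT at day 100, with overlap. Of the 33 glucocorticoid response genes 1 was higher without overlap, against 2.18% of all genes, and none lower.

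The counts without overlap of the signalling lists stand beside shares of 2.18% higher and 2.27% lower over all genes. Of 54 Wnt genes 1 was higher and 3 lower, or 2 higher and 6 lower with library size alone. WNT16, a Wnt ligand, averaged 1.65 ± 0.417 CPM at day 120 and 3.67 ± 0.589 CPM at day 100 (SD, n = 4 each). Of 61 genes of TGF-beta, BMP and FGF signalling 2 were higher and none lower. CHRDL1, a secreted antagonist of BMP, averaged 49.1 ± 22.9 CPM at day 120 and 12.97 ± 8.204 CPM at day 100 (SD, n = 4 each). No Hedgehog gene of 21 and no Notch gene of 27 was without overlap. NR4A1, an immediate early nuclear receptor, averaged 11.7 ± 4.57 CPM at day 120 and 3.21 ± 1.76 CPM at day 100 (SD, n = 4 each). DIO2, which activates thyroid hormone inside cells, averaged 5.704 ± 0.759 CPM at day 120 and 2.44 ± 0.953 CPM at day 100 (SD, n = 4 each), without overlap. The day 120 group had 2 liver genes higher, AHSG and SERPINA1, with 33.1 and 15.1 CPM in CF day 120 replicate 2. No other library exceeded 9.87 and 2.39 CPM. The sums of skeletal muscle and thyroid markers overlapped between the ages. Thymus markers summed to 43.7 to 56.3 CPM at day 120 and 56.9 to 71.0 CPM at day 100. None of the 17 tested was without overlap, and their median log2 fold change was 0.05, with -0.52 in CF and 0 in WT.

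The counts without overlap of the other lists stand beside 2.18% higher and 2.27% lower of all genes. Of 34 nerve and Schwann cell genes 3 were higher and 1 lower without overlap, of 13 mast cell and granulocyte genes 2 were higher, and of 19 squamous genes 2 were higher and 1 lower. Antigen presentation had 1 higher of 26 and erythroid genes 1 higher of 17, while lymphocyte genes had 1 lower of 36, neuroendocrine and tuft cell genes 1 of 30, lung alveolar genes 1 of 20 and heat shock and unfolded protein genes 1 of 47. Epithelial junctions had 2 lower of 31. No gene of 31 of cholesterol and lipid synthesis, of 56 of oxidative phosphorylation or of 76 ribosomal proteins was without overlap. Ribosomal proteins scored 0.53 and -0.77 in CF and -0.67 and 0.75 in WT at day 120, against -0.60 and -0.42 in CF and 0.80 and 0.37 in WT at day 100. The replicates of each day 120 group thus lay further apart than the means of the 2 ages in that genotype.

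Within WT alone 1 gene (0.00526%) passed edgeR's quasi-likelihood test, and 2404 genes (12.6%) had an unadjusted p under 0.05. It is an unnamed gene, LOC101123419, on chromosome 20 from 26398840 to 26406039 in the same coordinates. It rose in WT to 61.98 and 60.4 CPM at day 120, against 1.03 and 1.14 CPM at day 100, a log2 fold change of 5.82 ± 0.33 (SE) with an adjusted p of 0.00775. In CF it had 47.4 and 47.9 CPM at day 120, against 21.6 and 13.4 CPM at day 100. The difference between the genotypes missed the threshold, with an adjusted p of 0.191 in edgeR's test. In CF alone no gene passed edgeR's test, 572 (3.01%) had an unadjusted p under 0.05, and DESeq2 called 66 higher (0.347%) and 18 lower (0.0946%). DESeq2 called 1044 higher (5.49%) and 184 lower (0.967%) in WT. With the WT day 100 pair summed to 1 sample, edgeR called none in WT. The call of LOC101123419 was also lost without WT day 100 replicate 1 (adjusted p = 0.2), without WT day 100 replicate 2 (0.343) and without CF day 120 replicate 1 (0.0511). Without WT day 120 replicate 2 edgeR called 299 genes in WT, and without WT day 120 replicate 1 it called 16.

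Changes of 1 genotype only need the test of the difference itself, which no gene passed in edgeR's test. Of 19023 genes 1237 (6.5%) had an unadjusted p under 0.05 there, and DESeq2 called 51 (0.268%) with a more positive step in CF and 246 (1.29%) with a more positive step in WT. The plot of both steps shows the fold change of each gene in either genotype, with no test. Higher in both genotypes without overlap within each were 861 genes (4.53%), and lower in both 776 (4.08%). In opposite directions were 451 (2.37%) higher in CF and lower in WT, and 583 (3.06%) lower in CF and higher in WT. With 2 libraries in each group such non-overlap is no test of the difference, and these counts do not show that any gene changed in 1 genotype only. The genotypes share no library here, but the step in WT rests on the pair that stood apart. The median size of the log2 fold change was 0.25 in CF and 0.39 in WT.

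**Figure D4:**
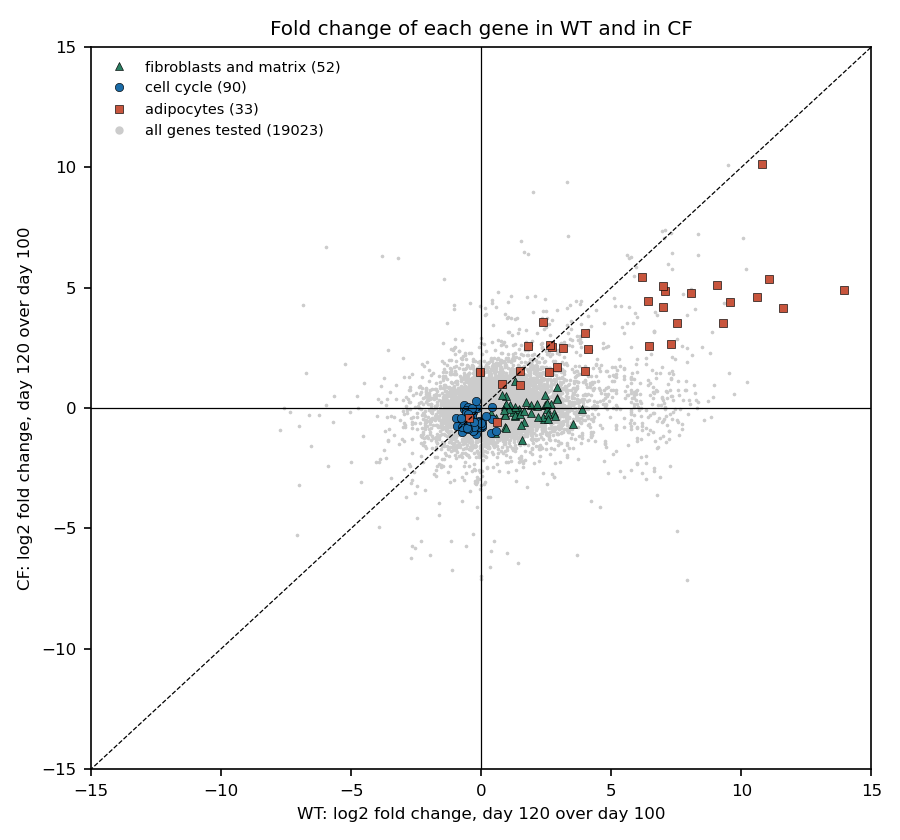
Log2 fold change of day 120 over day 100 in CF (vertical) against WT (horizontal) for the 19023 genes tested. Coloured symbols mark 3 gene lists and the dashed line marks equal steps. Adipocyte genes lie to the upper right, cell cycle genes have medians of -0.55 in CF and -0.49 in WT, and fibroblast genes lie along the WT axis. Values of genes with no count in a group depend on the prior count.

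Some genes of stroma, picked after their values were seen, had a small step in CF beside a large one in WT. COL1A1 had a step of -0.03 in CF and 3.88 in WT, a difference of -3.91 ± 0.62 (SE) with an adjusted p of 0.292. CXCL12, a chemokine of stroma, had 130.3 and 85.7 CPM in CF and 88.9 and 102 CPM in WT at day 120, against 106 and 144 CPM in CF and 15.99 and 11.5 CPM in WT at day 100. PDGFRA, the growth factor receptor of fibroblasts, had 72.8 and 73.4 CPM in CF and 79.8 and 54.9 CPM in WT at day 120, against 77.9 and 93.1 CPM in CF and 17.01 and 18.7 CPM in WT at day 100. C1QTNF6, a secreted protein related to complement C1q, and FBLN2, a fibulin, had steps of 0.39 each in CF and 3.69 and 2.92 in WT, without overlap in either genotype, and had differences of -3.304 ± 0.44 (SE) and -2.53 ± 0.39 (SE). The adjusted p for these 4 genes was 0.292 in edgeR's test. In each, WT day 100 was the low group. GABRA3, a subunit of the GABA receptor, had steps of opposite sign, at 7.74 and 5.16 CPM in CF and 5.804 and 4.25 CPM in WT at day 120, against 19.7 and 20.9 CPM in CF and 0.76 and 0.784 CPM in WT at day 100. Its difference of -4.35 ± 0.49 (SE) had an adjusted p of 0.259 in edgeR's test.

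Other genes had the larger step in CF, or steps of opposite sign. PIGR, the receptor that carries IgA into secretions, had 529 and 665 CPM in CF and 549.5 and 272 CPM in WT at day 120, against 45.3 and 22.5 CPM in CF and 247 and 490.0 CPM in WT at day 100. Its step was 4.14 in CF and 0.16 in WT, and the difference of 3.98 ± 0.76 (SE) had an adjusted p of 0.362 in edgeR's test. SPDEF, the regulator of goblet cell maturation, had 26.7 and 12.1 CPM in CF and 18.98 and 28.97 CPM in WT at day 120, against 5.72 and 5.701 CPM in CF and 32.4 and 35.5 CPM in WT at day 100. The CF day 100 pair was low in both genes, and at day 120 the genotypes overlapped. LTF had 131 and 121 CPM in CF and 29.9 and 26.8 CPM in WT at day 120, against 41.7 and 20.6 CPM in CF and 75.05 and 53.6 CPM in WT at day 100, so that it was higher at day 120 in CF and lower in WT. Its difference was 3.196 ± 0.50 (SE) with an adjusted p of 0.292 in edgeR's test. IGF2BP1, a fetal RNA-binding protein, had 0.455 and 0.563 CPM in CF and 2.04 and 1.66 CPM in WT at day 120, against 4.76 and 5.86 CPM in CF and 0.95 and 2.83 CPM in WT at day 100, a step of -3.38 in CF and -0.04 in WT. AGTR2, the angiotensin receptor of fetal tissue, and COL24A1, a fibrillar collagen, had differences of -1.42 ± 0.49 (SE) and -2.505 ± 0.58 (SE), with high levels in the CF day 100 pair alone. SFTPD, a surfactant collectin, and CFI, the complement inhibitor factor I, were at 3.14 ± 0.50 (SE) and 1.96 ± 0.30 (SE), with the WT day 100 pair the high one.

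Set beside the other ages, the members had different courses. The plot of the 5 ages gives CPM scaled over all 20 libraries, with no test. NUSAP1 and MCM6 were lower at each later age in the mean of each genotype. ADIPOQ had 899.7 and 270.5 CPM in CF and 1277 and 47.6 CPM in WT at day 120 in this scaling, and 72.4 and 903 CPM in CF and 55.2 and 2337 CPM in WT at day 147, so that both ages spanned a wide range. At day 80 ADIPOQ had 58.9 and 0.624 CPM in CF and 14.2 and 3.77 CPM in WT. PPARG had 17.6 and 9.49 CPM in CF and 9.87 and 10.1 CPM in WT at day 80. At day 100 PPARG had 3.44 and 8.52 CPM in CF and 0.369 and 0.274 CPM in WT. Fat genes were thus not first seen at day 120, and day 100 was not the lowest point of a steady course. LPO had a higher mean at each later age in each genotype. COL1A1 had 13230 and 18480 CPM in WT at day 65 and 7183 and 8121 CPM at day 80. At day 100 it had 680.6 and 598.9 CPM in WT, below both earlier ages. CF libraries of these ages ran from 7487 to 13590 CPM. ELN and COL2A1 were likewise lower in both WT day 100 libraries than in every WT library of days 65 and 80. The WT step in these genes thus started from a day 100 level below those of days 65 and 80. PI3 parted after day 120: at day 147 it had 5263 and 6548 CPM in CF and 125.5 and 204.6 CPM in WT. VNN2 had 237 and 213 CPM in CF and 28.2 and 11.7 CPM in WT at day 147. In WT 1 day 80 library had 18.3 CPM of VNN2, so its day 100 level is not the lowest of a steady course.

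**Figure D5:**
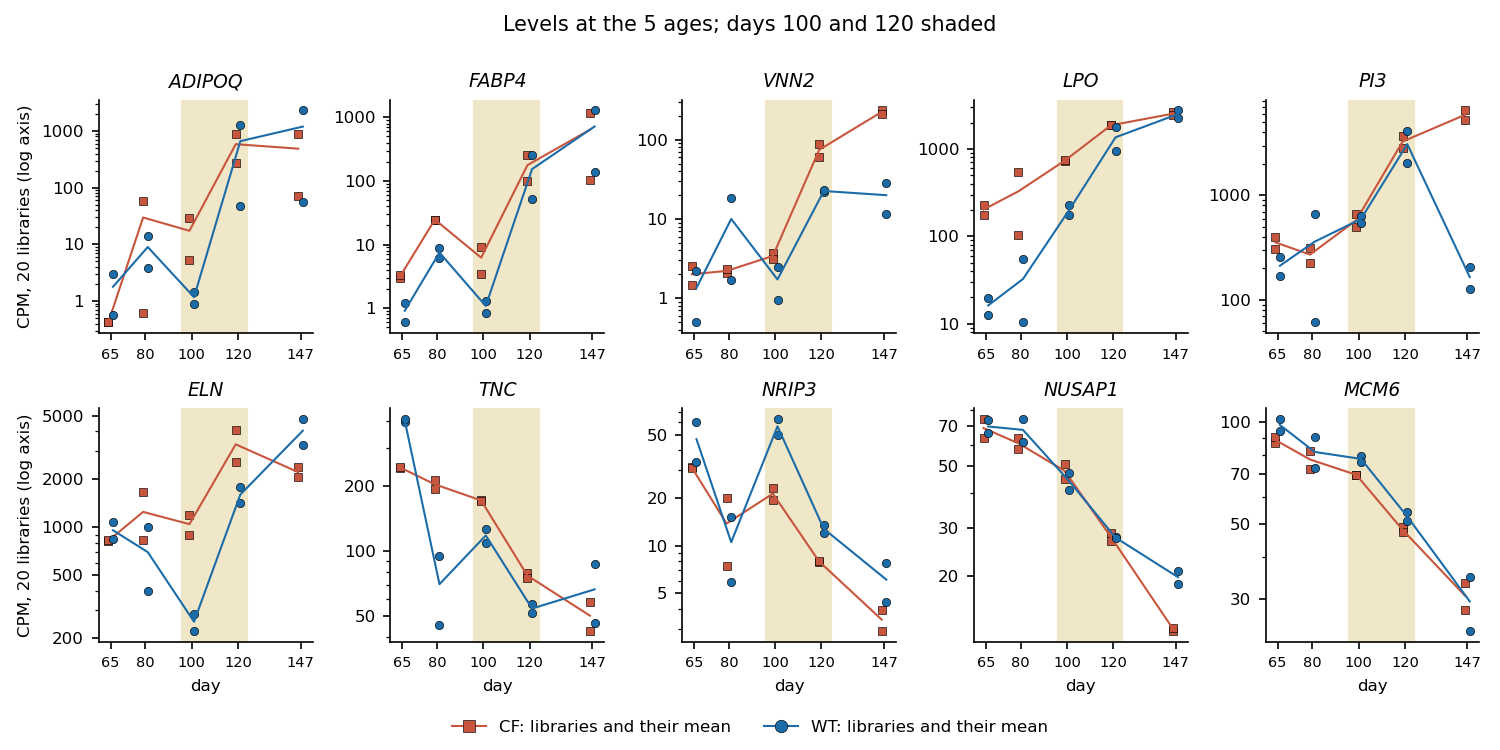
Level of 10 genes at days 65, 80, 100, 120 and 147 in CPM scaled over the 20 libraries, on log axes that differ between panels. Squares are CF and circles WT libraries, lines join group means, and days 100 and 120 are shaded. NUSAP1 and MCM6 are lower at each later age in both genotypes, and PI3 at day 147 is at 5263 and 6548 CPM in CF and 125.5 and 204.6 CPM in WT.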

How the data were processed

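The deposited values are the authors' raw read counts per gene, whole numbers in 1 table of WT and 1 of CF libraries. The submitters' processing notes name STAR 2.6 and Subread's featureCounts 1.6.3, with genome build, annotation release and strand setting not given in the sources used here. Reads of overlapping or antisense genes therefore cannot be told apart. Among the 24478 genes, 8432 had no symbol, and the RefSeq gene table, read for names alone, supplied one for 501. No sequence was used here.

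Groups came from the titles of the 8 libraries. Even numbers made up 71.5% to 85.3% of all values between 1 and 20, so counting error may be larger than the counts imply. A chi-square between the replicates of a group, averaged over genes, came to 39.3 to 572 in the 4 groups, far above counting noise, so none was a copy. CF day 100 replicate 2 shares a sample identifier with a WT day 65 library, although the titles differ in genotype and age. Floors cover counting error only.

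The filter filterByExpr over the 4 groups left 19023 genes, which were scaled by TMM and tested with edgeR 4.0.16 in R 4.3.3 (glmQLFit with robust estimation, then glmQLFTest). Genotype was a covariate for the step in both genotypes. The step in WT, in CF and their difference came from 1 coefficient per group. Benjamini-Hochberg adjustment ran over the whole table, and calls needed an adjusted p under 0.05. To obtain an SE, the log2 fold change was set against the square root of its F. DESeq2 1.42.0, limma-voom (limma 3.58.1), other scalings and filters, all 20 libraries, a length slope, a replicate block and each library left out were alternatives. The edgeR step was also run on simulated counts that had no length slope and no WT day 100 pair set apart. That run does not check how the test deals with these features. List scores use log2 CPM with a prior count of 2. Deviations of same-numbered libraries correlated at -0.564 to -0.056, so the numbers do not pair them.

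The members, the 45 gene lists and the 24 key genes were chosen with earlier results of these data known. The rule for named genes took the key genes and, up to 15 per direction of those past the threshold that had a symbol and averaged 1 or more in log2 CPM. Since none with a symbol passed, the other named genes were chosen after their values were seen. Some members are not reported here.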

Additional observations from a re-analysis of the deposited data

Results flagged for a closer look

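For each of 123 named genes the 4 libraries of each age were compared, 246 sets in all. In 11 of them (4.47%) 1 library stood far from the other 3 by Dixon's test. Chance flags about 1 in 20 sets of this kind. At day 120 WT replicate 2 was high for NCF1, at 55.7 CPM, and for EPCAM, at 228 CPM. The same library was low for LPO, at 949 CPM, and for GCLC, at 19.6 CPM. CF day 120 replicate 1 was high for COL6A1, a collagen VI chain, at 691 CPM. At day 100 WT replicate 2 was low for MYH11, at 9.22 CPM, and for THRSP, at 4.59 CPM. CF day 100 replicate 2 was low for CKMT1A, at 6.69 CPM, and for PLK4, at 40.7 CPM, and it was the 1 day 100 library with any count of LEP, at 0.118 CPM. CF day 100 replicate 1 was high for OAS1, at 186 CPM.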

How the results depend on the processing

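In both genotypes edgeR made no call under the other scalings, the replicate block or the summed WT day 100 pair. It made 3 calls with no filter on low counts, 20 with all 20 libraries, 48 with the length slope and 1 as the mean of both steps, and 0 to 8 with 1 library left out. DESeq2 made 476 and limma-voom 1. In WT there were 2 calls with library size alone, 52 with no filter, 105 with all 20 libraries, 1075 with the length slope, 1228 in DESeq2 and 0 to 299 with 1 library left out. The WT count was 0 with the replicate block, with the crossed replicate block and with the summed pair. Same-numbered libraries correlated at -0.384 in WT and -0.178 in CF, so the crossed pairing was added after seeing the data, and neither block gave a call in any comparison. In CF DESeq2 called 84, and no library left out gave a call (0 to 0). For the difference DESeq2 called 297, the length slope 74 and a left-out library 0 to 7. Genes without overlap numbered 550 to 830 higher and 581 to 872 lower with 7 libraries, where fewer values are compared. The cause of the other shifts was not tested.

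Signs of the log2 fold change in both genotypes turned for 7 genes, none of which passed. CFTR was at -0.052 in limma-voom, -0.025 with the length slope and -0.246 to 0.26 with 1 library left out. TP63 was at 0.005 with all 20 libraries, 0.009 with the summed pair and -0.3 to 0.135 with 1 library left out. LIN28B was at -0.189 in limma-voom, -0.32 with the summed pair and -0.538 to 1.46 with 1 library left out. Leaving out 1 library gave -0.118 to 1.49 for SCGB1A1, -0.831 to 1.135 for BPIFA1, -0.239 to 0.983 for LTF and -0.892 to 0.18 for MKI67. LOC101123419 in WT missed the threshold with the replicate block (adjusted p = 0.0635 in edgeR's test), the crossed replicate block (0.072) and the summed pair (0.461), at log2 fold changes of 5.81, 5.81 and 5.77. Of the other values of named genes 2227 kept direction and call and 137 came to pass. SCGB1A1 and LIN28B, under 1.5 CPM in every library, are limited by depth.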
